A study of Mus musculus with 6 samples.

Results

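Complement is a cascade of plasma proteins, made largely by hepatocytes, that marks microbes and damaged cells, calls in phagocytes and can open pores in membranes. The classical pathway starts when C1q binds antibody, the lectin pathway when mannose-binding lectins, ficolins or collectins bind sugars on a surface, and the alternative pathway runs through factor B, factor D and properdin. All of them cleave C3, and the terminal components then assemble into the membrane attack complex, while regulators restrain each step on host cells. Several of these genes are also induced in the acute phase response and by interferons, and the C1q chains, properdin and the anaphylatoxin receptors are made mostly by macrophages and other myeloid cells.

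Transcripts of 33 genes of this system were followed in mouse liver, 7 of the classical pathway, 7 of the lectin pathway, 4 of the alternative pathway with C3, 6 terminal components, 7 regulators and 2 receptors. They were taken by gene symbol from the 40803 genes of the count table, and 33 of the 33 passed the filter on low counts that left 16327 genes for testing. The livers came from male C57BL/6J mice, labelled C57BL6, given a recombinant adeno-associated virus of serotype 8 (rAAV8) by tail vein at about 6 weeks of age and sampled 4 weeks later, with free access to food. In the rAAV8-sh-Hnf1aos1 group (n = 3, here the knockdown group) the virus carried a short hairpin RNA against the lncRNA Hnf1aos1 under a U6 promoter, in the rAAV8-sh-scramble group (n = 3) a scrambled hairpin, and the constructs also held an EGFP reporter. The labels name the groups rAAV8-Hnf1aos1 and rAAV8-Scramble. Both groups therefore received virus, hairpin and reporter, and livers without virus were not analysed here. Each library is the liver of 1 mouse, and values of 3 libraries are given in the order of replicates 1 to 3.

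Hnf1aos1 itself had normalized counts (counts scaled to a common library size by edgeR's TMM method) of 512, 491 and 620.3 in scramble replicates 1, 2 and 3 and 278, 258 and 433 in knockdown replicates 1, 2 and 3. The 3 knockdown values were all under the 3 scramble values (p = 0.1 by an exact permutation test, two-sided, which cannot go lower with 3 against 3). The log2 fold change of −0.74 had a standard error (SE) of 0.195 and did not pass the threshold of 0.05 (edgeR adjusted p = 0.0625). Gene totals ran from 14704746 to 19462398 counts per library. Hepatocyte markers were abundant, with a summed level (in CPM, counts scaled to the size of the library) of 64905 to 72957 CPM in the scramble and 64354 to 80053 CPM in the knockdown libraries. Most of this sum was Alb, in which the groups overlapped. Of the 8 markers 5 had a log2 fold change above 0 and 3 below. The groups did not overlap in 4 (28.9% of all genes tested), and only Tat passed the threshold, lower in the knockdown group (−0.72, edgeR adjusted p = 0.00766). Neutrophil markers summed to 2.63 to 4.05 CPM in the scramble and 4.397 to 6.23 CPM in the knockdown libraries, without overlap. S100a8 and S100a9 were higher in every knockdown than in every scramble library, at raw counts of at most 12. The groups overlapped in the other neutrophil markers, of which only Csf3r passed the filter on low counts. Ly6g was at 0 in 6 of 6 libraries. The RNA is that of whole liver, so more cells of a type and more RNA per cell cannot be told apart.

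The complement genes ranged over more than 3 orders of magnitude in level. On the scale of TPM, a level corrected for gene length and library size by the authors, C3, the component on which all pathways converge, was the highest with 2970.4 ± 134 (SD, n = 3) in the scramble group, and the C5a receptor C5ar1 the lowest with 1.41 ± 0.571 (SD, n = 3). Behind C3 came the lipid-binding inhibitor Clu with 769 ± 21.9 (SD, n = 3) TPM, the C1 inhibitor Serping1 with 736 ± 15.6 (SD, n = 3) TPM and factor B, Cfb, with 639.5 ± 34.8 (SD, n = 3) TPM. Most secreted components and fluid-phase regulators filled the upper part of this order, and the C1q chains, the ficolin and collectins, the membrane-bound regulators, Cfp, Cfd and the receptors the lower part. Together the 33 genes took 1.56 to 1.67% of the gene counts of a scramble library and 1.85 to 2.13% of a knockdown library, and the groups did not overlap in this share. C3 alone held 43.5 to 44.7% of the complement counts in the scramble libraries and 39.3 to 41.1% in the knockdown libraries.

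**Figure D1:**
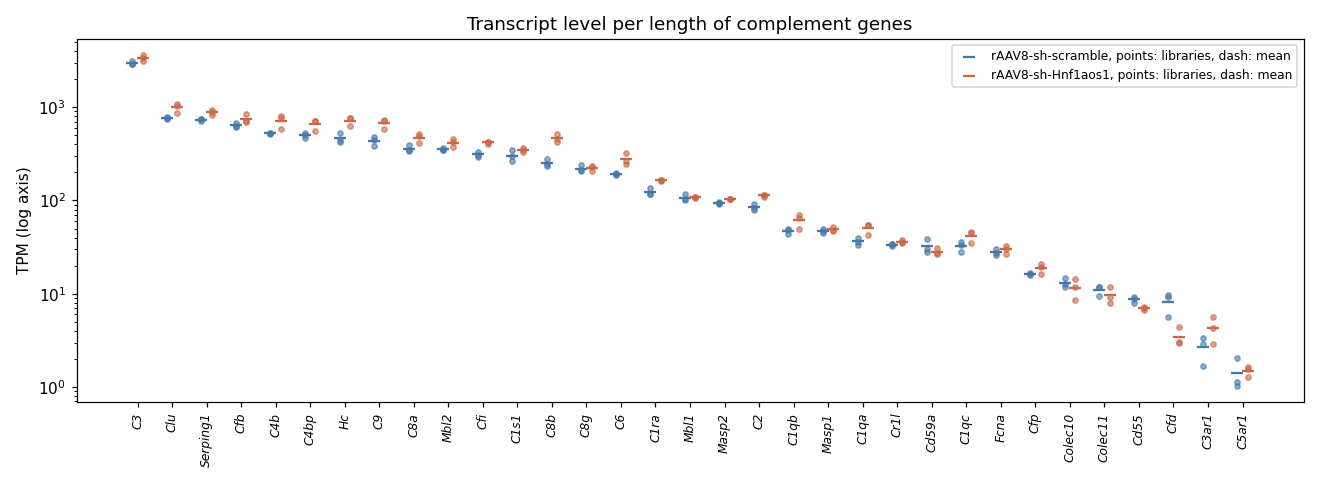
Level of the 33 complement genes in TPM (log axis), ordered by the scramble mean, with a point for each library and a dash for the group mean (n = 3). C3 stands at 2970.4 TPM in the scramble group and C5ar1 at 1.41 TPM, and the gap between the groups differs from gene to gene.

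Between the groups, 14 of the 33 genes were called at an adjusted p under 0.05 by edgeR's quasi-likelihood test, 13 higher and 1 lower in the knockdown group, where 6.32% of all genes tested were called (3.09% higher and 3.23% lower). The 13 that rose were C1qa, C1qb, C1ra, C2 and C4b of the classical pathway, Hc, C6, C8a, C8b and C9 of the terminal components, and the regulators C4bp, Cfi and Clu, and Cfd fell. DESeq2 called 15 (7.11% of the genes it tested), and 24 had an unadjusted p under 0.05 in edgeR (23.4% of all). The groups did not overlap in 24 genes (28.9% of all), with the knockdown libraries above in 22 and below in 2, against 15.2% and 13.7% of all genes tested. The median log2 fold change was 0.32 over the 33 genes and 0.00 over all genes tested, and 28 of the 33 had a value above 0, where 49.9% of all genes did. Among the 13 that rose the changes were modest, from 1.36-fold for Clu to 1.93-fold for C8b, and with the log2 limit of 1 that the study also applied only Cfd was left (2.16% of all genes tested).

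The number of calls changed with single libraries, while the folds changed less. Without scramble replicate 3, the library with the lowest value of the 6 for 21 of the 33 genes, 1 gene was called. Without scramble replicate 2 or knockdown replicate 2 there were 3, without knockdown replicate 1 8, without scramble replicate 1 9 and without knockdown replicate 3 17. The share of all genes called moved in the same fits, from 0.619% to 11.2%. The median log2 fold change of the 33 genes stayed between 0.28 and 0.38, with 27 to 30 of them above 0. C8b was called in 6 of these 6 fits, C6 and C9 in 5. Knockdown replicate 3 had the lowest value of the 3 knockdown libraries for 10 of the 13 genes that rose and knockdown replicate 1 for the other 3. Exons of Hc, C1s1, C2, Masp2, Fcna, Cd55 and Hnf1aos1 overlap a gene on the opposite strand, and C1ra, C1s1 and Cd59a have close copies (C1rb, C1s2 and Cd59b), so their counts are uncertain to that extent, since the strand setting of the counting is not given in the sources used here.

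**Figure D2:**
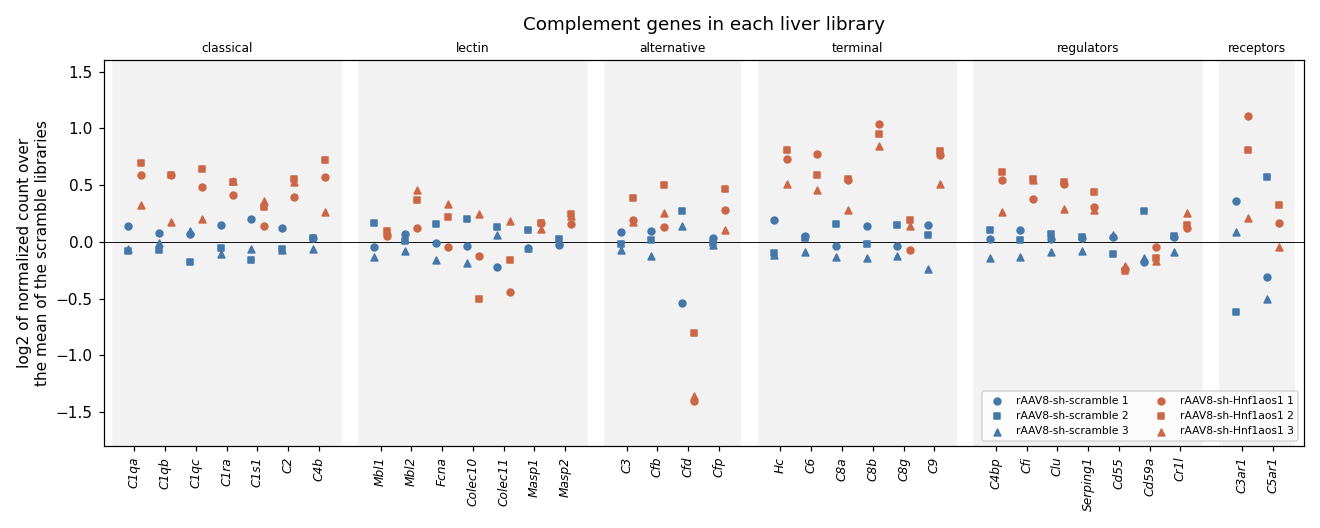
Normalized count of each gene in each library relative to the mean of the 3 scramble libraries (log2 scale), by pathway, with scramble libraries in blue, knockdown libraries in orange and a marker shape for each replicate number. All 3 knockdown libraries of C8b lie well above 0, while the knockdown libraries of Colec10 and Colec11 lie on both sides of 0 and those of Cfd lie below it.

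Acute phase and interferon-induced genes are set beside these values. Of 14 acute phase genes 14 had a log2 fold change above 0 (median 1.08) and 5 were called, where 6.32% of all genes tested were called. At an unadjusted p under 0.05 in edgeR there were 13, against 23.4% of all genes tested. DESeq2 called 13, against 7.11% of the genes it tested. The knockdown libraries differed widely in some of them, with 806, 3741 and 172 normalized counts of Saa1. The summed level was 13449 to 14463 CPM in the scramble and 19344 to 34163 CPM in the knockdown libraries. Of 15 interferon-induced genes 15 were above 0 (median 1.62) and 10 were called, with 13 at an unadjusted p under 0.05 and 12 called by DESeq2. Their sum was 311 to 445 CPM in the scramble and 834 to 1613 CPM in the knockdown libraries. Knockdown replicate 3 was the lowest of the 3 knockdown libraries in both sums. The part of these responses in the complement values was not tested.

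Of the 7 classical pathway genes, 5 rose, C1qa, C1qb, C1ra, C2 and C4b, and the log2 fold changes of all 7 lay between 0.27 and 0.55. C1qa, C1qb and C1qc encode the A, B and C chains of C1q, the recognition subunit. C1qa had 332, 285 and 289 normalized counts under the scrambled hairpin and 456, 490.3 and 379 under the Hnf1aos1 hairpin. For C1qb these were 421, 379 and 395 against 599.8, 598 and 450.1, and for C1qc 290.4, 245 and 296 against 388, 431 and 319. In each chain the knockdown libraries were all above the scramble libraries, with knockdown replicate 3 nearest to them. C1qa rose by 0.55 on the log2 scale (SE 0.121, edgeR adjusted p = 0.0277) and C1qb by 0.46 (SE 0.122, edgeR adjusted p = 0.0458), while C1qc had a log2 fold change of 0.45 that did not pass (adjusted p = 0.0662 from edgeR). The C1qb call was lost in 4 of 8 alternative settings, with library totals (adjusted p = 0.0865 from edgeR), a minimum mean of 50 counts (0.0677), limma's voom (0.0648) and the replicate number as a block (0.0571).

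Within libraries the groups overlapped in the proportion of these chains, and the log2 ratio of C1qb to C1qc counts was 0.53 ± 0.107 (SD, n = 3) in the scramble and 0.53 ± 0.0843 (SD, n = 3) in the knockdown libraries. They lie in a row on the − strand of chromosome 4 of GRCm38, C1qb at 136880129 to 136886187, C1qc at 136889804 to 136893065 and C1qa at 136895917 to 136898803. Of the Kupffer cell and macrophage markers 12 of 12 had a log2 fold change above 0 (median 0.43) and 3 were called (Adgre1, Clec4f and Lyz2). Among all genes tested 49.9% were above 0 and 6.32% were called. At an unadjusted p under 0.05 in edgeR there were 9, against 23.4% of all genes tested. DESeq2 called 6, against 7.11% of the genes it tested. The summed level of the 12 was 284 to 332 CPM in the scramble and 369.6 to 586 CPM in the knockdown libraries. Mpeg1 weighed in this sum, with 1111, 1053 and 1133 normalized counts against 4428, 3204 and 1564 (log2 fold change 1.48). The groups did not overlap in 8 of the 12, against 28.9% of all genes tested, and overlapped in Csf1r (0.18) and Cd163 (0.12) among others. None of the 12 was at 0. Clec4f, which marks Kupffer cells, had 1179, 1045 and 985 normalized counts under the scrambled hairpin and 1516, 1540.4 and 1292 under the Hnf1aos1 hairpin, and its log2 fold change of 0.44 (SE 0.103, edgeR adjusted p = 0.0327) was close to those of the C1q chains. The part of macrophage number in the C1q values was not tested.

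The proteases of the C1 complex and the next components of the pathway are hepatocyte products. C1ra, the protease that activates C1s, had 2899, 2522 and 2428 normalized counts under the scrambled hairpin and 3477, 3775 and 3783 under the Hnf1aos1 hairpin, a rise of 0.49 on the log2 scale (SE 0.0975, edgeR adjusted p = 0.0169). Its neighbour on chromosome 6, C1s1, which cleaves C4 and C2, had 8273, 6449 and 6908 against 7943, 8926 and 9267. Scramble replicate 1 of C1s1 lay above knockdown replicate 1, so the groups overlapped, and the log2 fold change of 0.27 did not pass (adjusted p = 0.184 from edgeR). C2, the protease of the C3 convertase that the classical and lectin pathways share, had 1879.6, 1651 and 1642 against 2262, 2529 and 2489, a rise of 0.49 on the log2 scale (SE 0.0935, edgeR adjusted p = 0.0139).

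C4b, the C4 gene, had 22548, 22485 and 21036 normalized counts under the scrambled hairpin and 32749, 36297 and 26414 under the Hnf1aos1 hairpin. The scramble libraries were close together and knockdown replicate 3 was the lowest of its group. The rise was 0.53 on the log2 scale (SE 0.126, edgeR adjusted p = 0.0338). Its near-identical copy C4a had a log2 fold change of 0.35 (adjusted p = 0.146 from edgeR), and reads could be split between the copies, so the single values are uncertain. C4b, Cfb and C2 lie in this order on the − strand of chromosome 17, and 85 bases separate Cfb from C2. An annotated transcript (Gm20547) spans exons of both, which makes their counts uncertain to that extent. Of the 5 classical calls, 0 were left when replicate 2 of either group or scramble replicate 3 was dropped. Of all genes, 2.34% were called without scramble replicate 2, 1.93% without knockdown replicate 2 and 0.619% without scramble replicate 3. Without knockdown replicate 1 there were 2 classical calls left (C1ra and C2), and without scramble replicate 1 3 (C1qa, C1ra and C2). All 5 were kept without knockdown replicate 3, where 11.2% of all genes were called.

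None of the 7 lectin pathway genes was called by edgeR with TMM scaling or by DESeq2, with 2 at an unadjusted p under 0.05 (Mbl2 and Masp2), and their median log2 fold change was 0.15. The mannose-binding lectins Mbl1 and Mbl2 are secreted by hepatocytes. Mbl2 had 3448, 3287 and 3104 normalized counts under the scrambled hairpin and 3559.9, 4222 and 4513 under the Hnf1aos1 hairpin, with no overlap, and a log2 fold change of 0.32 (SE 0.106, edgeR adjusted p = 0.0949). Mbl1 had 4780.1, 5523 and 4478 against 5108, 5259.8 and 5275, where the knockdown libraries lay inside the range of the scramble libraries, and a log2 fold change of 0.08 (SE 0.101). Mbl2 was called with library sizes from the spike-ins (edgeR adjusted p = 0.0113), without the filter on low counts (0.0425) and without knockdown replicate 1 (0.042). With spike-in sizes 20.8% of all genes tested were called, 89.3% of them higher. On the TPM scale Mbl2 stood at 353 ± 12.4 (SD, n = 3) and Mbl1 at 107 ± 9.24 (SD, n = 3) in the scramble group.

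The lectin pathway proteases Masp1 and Masp2, which bind these lectins, did not pass the test. Masp1 had 2544, 2845 and 2557 normalized counts under the scrambled hairpin and 2967, 2968 and 2868 under the Hnf1aos1 hairpin. For Masp2 the values were 2447, 2541 and 2503 and 2784, 2954 and 2931. In both genes the knockdown libraries were above the scramble libraries by a small margin, with log2 fold changes of 0.15 (SE 0.0878) and 0.21 (SE 0.0833) and adjusted p of 0.338 and 0.154 from edgeR. Both were called with library sizes from the spike-ins (edgeR adjusted p = 0.0351 and 0.0142).

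Ficolin A, Fcna, had 303, 339 and 273 normalized counts under the scrambled hairpin and 296, 355 and 385 under the Hnf1aos1 hairpin. The collectins had the largest SE among the lectin genes. Colec10, in liver a product of stellate cells, had 468, 552 and 422 against 439.6, 339 and 569.7, and Colec11 182, 232 and 221 against 155, 189 and 240. The groups overlapped in these 3 genes, and the SE of their log2 fold changes (0.18, −0.10 and −0.12) were 0.128, 0.183 and 0.167. The sign for both collectins turned with library sizes from the spike-ins. Knockdown replicate 2 was the lowest of the 6 libraries for Colec10 and knockdown replicate 3 the highest, and the stellate marker Reln had 1655, 2279 and 1864 normalized counts under the scrambled hairpin and 1614, 1515 and 2273 under the Hnf1aos1 hairpin. Of 9 stellate markers 7 had a log2 fold change below 0 and 0 were called (1 at an unadjusted p under 0.05, 0 by DESeq2), with 371 to 482 CPM in the scramble and 331 to 449 CPM in the knockdown libraries. The part of stellate cells in the Colec10 values was not tested.

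In the alternative pathway Cfd fell, and C3, Cfb and Cfp did not pass the test although in each of them every knockdown library was above every scramble library. C3 had 126175, 117356 and 112784 normalized counts under the scrambled hairpin and 136117, 154980 and 134239 under the Hnf1aos1 hairpin. A log2 fold change of 0.26 resulted (SE 0.116, edgeR adjusted p = 0.211). Factor B, Cfb, the protease of the alternative convertase, had 14533, 13784 and 12493 against 14878, 19248 and 16193. Knockdown replicate 1 of Cfb lay just above scramble replicate 1, and the log2 fold change was 0.30 (adjusted p = 0.154 from edgeR). Properdin, Cfp, which stabilizes that convertase and is made by myeloid cells, had 209, 203 and 200.2 against 248, 282 and 219, a log2 fold change of 0.29 (adjusted p = 0.189 from edgeR). All 3 were called when library sizes were taken from the spike-ins, with 25 of the 33 genes called in that fit. It also called 20.8% of all genes tested, 89.3% of them higher, and moved the median log2 fold change over all genes to 0.20.

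Cfd encodes factor D (adipsin), the protease that cleaves factor B and is secreted mainly by fat tissue. It had 40, 70.2 and 63.8 normalized counts under the scrambled hairpin and 21.9, 33.3 and 22.6 under the Hnf1aos1 hairpin, so that the highest knockdown library lay below the lowest scramble library. It fell by 1.16 on the log2 scale (SE 0.292, edgeR adjusted p = 0.0411), the largest change in size among the 33 genes. The counts were low, and the call was lost with limma's voom (adjusted p = 0.0544) and in 4 of the 6 fits without a library, the exceptions being those without scramble replicate 1 and without knockdown replicate 3. The adipocyte marker Adipoq had 9.23, 24.1 and 22 normalized counts under the scrambled hairpin and 10.5, 19 and 2.72 under the Hnf1aos1 hairpin, with overlapping groups. The summed level of 5 adipocyte markers was 11.6 to 21.5 CPM in the scramble and 9.45 to 12 CPM in the knockdown libraries. Most of this sum was Plin4, with 181, 308 and 302 normalized counts against 153, 124 and 199, where the groups also overlapped. The log2 fold change was −0.78 for Adipoq and −0.73 for Plin4 (adjusted p = 0.453 and 0.108 from edgeR). DESeq2 called 1 of the adipocyte markers, against 7.11% of the genes it tested. Lep, Retn and Plin1 did not pass the filter on low counts. Skeletal muscle markers stood at 56.1 to 209 CPM in the scramble and 25.2 to 66 CPM in the knockdown libraries in sum. Their log2 fold changes were below 0 in 7 of 7, and 1 was called, against 6.32% of all genes tested. At an unadjusted p under 0.05 in edgeR there were 3 (23.4% of all), and DESeq2 called 2. The part of fat or muscle RNA in the Cfd values was not tested.

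The largest rises that passed the test were in the terminal components. Hc (the mouse gene for C5), C6, C8a, C8b and C9 rose, with a median log2 fold change of 0.65 over the 6 genes, and C8g did not pass. C5 is cleaved to the attractant C5a and to C5b, which starts the membrane attack complex with C6, and C8 and many copies of C9 complete the pore. C8 itself is built from an alpha, a beta and a gamma chain, encoded by C8a, C8b and C8g.

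C8b changed most of the genes that rose. It had 4794, 4295 and 3941 normalized counts under the scrambled hairpin and 8903, 8414 and 7809 under the Hnf1aos1 hairpin. The lowest knockdown library was far above the highest scramble library, and the rise was 0.95 on the log2 scale or 1.93-fold (SE 0.106, edgeR adjusted p = 0.00154). In 8 of 8 alternative settings and 6 of 6 fits without a library it was called, with log2 fold changes of 0.88 to 1.15. C8a had 10009.6, 11429.7 and 9318 against 14913, 15072 and 12471, a rise of 0.47 on the log2 scale (SE 0.117, edgeR adjusted p = 0.0409). C8g, a lipocalin chain, had 1958, 2216 and 1837 against 1902, 2286 and 2204, with overlapping groups and a log2 fold change of 0.09 (SE 0.104, adjusted p = 0.651 from edgeR).

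The chains of C8 were compared within each library, where no scaling enters. The log2 ratio of C8b to C8g counts was 1.29, 0.95 and 1.10 in scramble replicates 1 to 3 and 2.23, 1.88 and 1.83 in knockdown replicates 1 to 3, a shift of 0.86 with no overlap. For C8a to C8g the ratios were 2.35, 2.37 and 2.34 against 2.97, 2.72 and 2.50, a shift of 0.38, and for C8b to C8a −1.06, −1.41 and −1.24 against −0.74, −0.84 and −0.68, a shift of 0.48. In each of these 3 ratios the groups were apart (p = 0.1 in an exact permutation test, two-sided, at its lower bound for 3 against 3, and 0.2 after adjustment over 6 ratios). The pairs were chosen after the values were seen. On the TPM scale the scramble group had 359 ± 29.2 (SD, n = 3) of C8a, 253 ± 20.7 (SD, n = 3) of C8b and 220 ± 16.1 (SD, n = 3) of C8g, and the knockdown group 471 ± 55.8 (SD, n = 3), 463 ± 43.7 (SD, n = 3) and 222 ± 14 (SD, n = 3). C8b was thus near C8g in level in the scramble group and near C8a in the knockdown group.

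**Figure D3:**
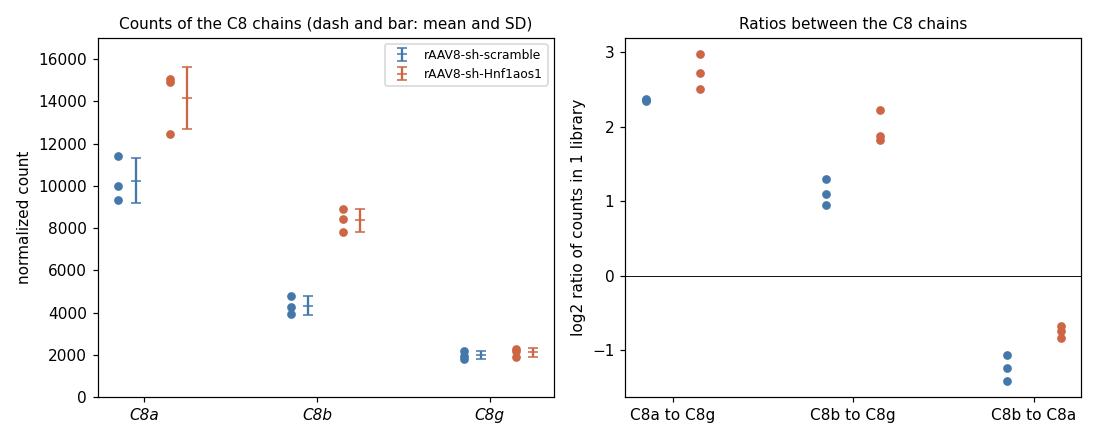
Left, normalized counts of the 3 C8 chain genes in each library with the group mean and SD (n = 3). Right, log2 ratios of the counts of 2 chains within each library, where C8b to C8g lies between 0.95 and 1.29 in the scramble (blue) and between 1.83 and 2.23 in the knockdown libraries (orange).

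Hc had 22910.4, 18729 and 18446 normalized counts under the scrambled hairpin and 33234, 35122 and 28566 under the Hnf1aos1 hairpin, and rose by 0.69 on the log2 scale (SE 0.125, edgeR adjusted p = 0.0114). C9 had 8454, 7913 and 6457 against 12958, 13254 and 10858, a rise of 0.70 (SE 0.126, edgeR adjusted p = 0.0111). In C6 the values were 5402, 5307 and 4889 against 8863, 7836 and 7145, a rise of 0.61 (SE 0.106, edgeR adjusted p = 0.0105). In all 3 the groups were well apart and knockdown replicate 3 was the lowest knockdown library. C6 and C9 kept their calls in 5 of the 6 fits without a library and lost them without scramble replicate 3, where the adjusted p was 0.0841 for C6 and 0.0805 for C9 from edgeR. Hc also lost its call without scramble replicate 2 and without knockdown replicate 2, and C8a kept its call in 1 of these 6 fits, that without knockdown replicate 3. C8a was also not called with library totals (edgeR adjusted p = 0.0511) or a minimum mean of 50 counts (0.0542).

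C8b (chromosome 4, 104766317 to 104804548, + strand) and C8a (chromosome 4, 104815679 to 104876398, - strand) are neighbours, with 11130 bases between their 3′ ends, and C6 and C9 both lie on chromosome 15, whereas C8g (chromosome 2, 25498651 to 25501719, - strand) and Hc (chromosome 2, 34983331 to 35061438, - strand) are on chromosome 2. The sequences upstream of the RefSeq starts of the terminal genes, and of the regulator C4bp, are shown because 5 of the 6 terminal genes rose together and C8g did not. Each runs 5′ to 3′ on the strand of the gene from up to 250 bases before the start and was shortened so that it holds no annotated exon (build GRCm38.p6). Capitals mark matches, on either strand, to 5 short motifs, HNF4 (CAAAGTCCA), C/EBP (TTGCNNAA), STAT (TTCNNNGAA), HNF1 and the interferon-stimulated response element (ISRE).
Hc: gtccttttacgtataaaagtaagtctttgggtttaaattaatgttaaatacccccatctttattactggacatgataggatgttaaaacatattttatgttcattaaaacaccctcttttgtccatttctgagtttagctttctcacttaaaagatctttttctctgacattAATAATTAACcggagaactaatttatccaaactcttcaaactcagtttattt
C6: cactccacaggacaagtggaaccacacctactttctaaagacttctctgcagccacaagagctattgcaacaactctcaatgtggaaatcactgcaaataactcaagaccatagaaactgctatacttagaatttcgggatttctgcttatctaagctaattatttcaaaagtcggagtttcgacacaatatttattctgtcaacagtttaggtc
C8a: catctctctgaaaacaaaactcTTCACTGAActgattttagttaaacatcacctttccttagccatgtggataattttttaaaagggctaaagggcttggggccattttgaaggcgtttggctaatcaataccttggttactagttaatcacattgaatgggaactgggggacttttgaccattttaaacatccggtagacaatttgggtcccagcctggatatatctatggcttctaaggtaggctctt
C8b: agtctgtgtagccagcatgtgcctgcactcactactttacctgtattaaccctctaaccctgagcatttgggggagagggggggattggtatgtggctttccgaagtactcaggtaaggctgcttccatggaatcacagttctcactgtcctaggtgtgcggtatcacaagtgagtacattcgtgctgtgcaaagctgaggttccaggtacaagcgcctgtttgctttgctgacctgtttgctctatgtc
C9: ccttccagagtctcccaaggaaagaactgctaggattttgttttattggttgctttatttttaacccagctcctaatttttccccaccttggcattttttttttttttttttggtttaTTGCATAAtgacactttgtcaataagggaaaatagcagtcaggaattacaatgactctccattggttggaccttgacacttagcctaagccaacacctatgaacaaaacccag
C8g: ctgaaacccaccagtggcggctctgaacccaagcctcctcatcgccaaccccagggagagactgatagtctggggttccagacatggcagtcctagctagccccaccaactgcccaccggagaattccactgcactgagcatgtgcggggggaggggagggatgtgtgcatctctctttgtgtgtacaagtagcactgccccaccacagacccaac
C4bp: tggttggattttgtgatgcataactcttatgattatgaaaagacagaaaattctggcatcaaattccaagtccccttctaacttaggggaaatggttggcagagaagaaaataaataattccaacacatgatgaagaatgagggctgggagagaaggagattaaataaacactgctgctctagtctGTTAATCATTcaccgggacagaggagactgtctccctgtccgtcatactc

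The windows are chr2:35061439-35061662 on the - strand for Hc, chr15:4726960-4727174 on the + strand for C6, chr4:104876399-104876648 on the - strand for C8a, chr4:104766067-104766316 on the + strand for C8b, chr15:6445096-6445326 on the + strand for C9, chr2:25501720-25501935 on the - strand for C8g and chr1:130661633-130661868 on the - strand for C4bp. The match in Hc and the one in C4bp are to the HNF1 motif, the homeodomain factor that is encoded opposite Hnf1aos1, and begin at −78 and −64 from the start. C9 held a C/EBP match and C8a a STAT match, and the windows of C6, C8b and C8g held none of the 5. C8g has another RefSeq start, whose window (chr2:25500614-25500749 on the - strand when shortened) is not shown and also held no match. Of the 33 genes 24 had a window in the RefSeq table, and 2 of these held an HNF1 match (Hc and C4bp), 3 a C/EBP match, 3 a STAT match, 2 an ISRE match and 0 an HNF4 match. Among 32851 windows of the same length over all genes the shares were 0.371% for HNF1, 9.56% for C/EBP, 7.02% for STAT, 2.98% for ISRE and 0.384% for HNF4. A match describes letters in the window and not binding.

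Of the 7 regulators, the fluid-phase inhibitors C4bp, Cfi and Clu rose, and Cd55, Cd59a and Cr1l, which are bound to membranes, did not pass. C4bp, the C4b-binding protein, had 7559.5, 8019 and 6739.7 normalized counts under the scrambled hairpin and 10822, 11375 and 8929.5 under the Hnf1aos1 hairpin, a rise of 0.48 on the log2 scale (SE 0.118, edgeR adjusted p = 0.0379). Factor I, Cfi, the protease that inactivates C3b and C4b, had 5447, 5122 and 4612 against 6592, 7444 and 7402, a rise of 0.50 (SE 0.102, edgeR adjusted p = 0.0198). Clu, which blocks insertion of the attack complex into membranes, had 13474, 13883 and 12431 against 18889.6, 19105 and 16178, a rise of 0.45 (SE 0.107, edgeR adjusted p = 0.0356). All knockdown libraries were above all scramble libraries in these genes, and the Clu call was lost with the replicate number as a block (edgeR adjusted p = 0.0515). Serping1, the C1 inhibitor that also stops the lectin proteases, had 10585, 10676 and 9756 against 12806, 14059 and 12524, likewise apart, with a log2 fold change of 0.34 that missed the threshold in edgeR (adjusted p = 0.0637) and passed in DESeq2 (adjusted p = 0.017). With replicate 2 of either group or scramble replicate 3 dropped, 0 of the 7 regulators were called, without scramble replicate 1 or knockdown replicate 1 Cfi alone, and without knockdown replicate 3 4 with Serping1.

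The membrane regulators protect host cells. Cd55 (decay-accelerating factor), which takes the convertases apart, had 556, 502 and 562 normalized counts under the scrambled hairpin and 459, 451 and 465 under the Hnf1aos1 hairpin. Every knockdown library of Cd55 lay below the scramble libraries, but the log2 fold change of −0.24 did not pass (SE 0.0914, edgeR adjusted p = 0.146). Cd59a, which blocks the attack complex, had 439, 600.4 and 449.8 against 481, 449 and 442, within overlapping ranges, and its sign turned with library sizes from the spike-ins. Cr1l (Crry), the rodent cofactor for cleavage of C3b, had 511, 514 and 466 against 539.8, 552 and 593, apart by a small margin, with a log2 fold change of 0.18 (adjusted p = 0.274 from edgeR), and was called with library sizes from the spike-ins (log2 fold change 0.38, edgeR adjusted p = 0.0238). On the TPM scale these membrane proteins stood at 8.69 (Cd55), 32.3 (Cd59a) and 33.7 (Cr1l) in the scramble group, against 498 for C4bp and 312 for Cfi.

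The receptors for the anaphylatoxins C3a and C5a had the lowest TPM of the 33 genes in the scramble group, and in the knockdown group Cfd (3.47 TPM) lay below C3ar1 (4.28 TPM). C3ar1 had 113, 57.1 and 93.5 normalized counts under the scrambled hairpin and 189, 154 and 101 under the Hnf1aos1 hairpin, where knockdown replicate 3 lay below scramble replicate 1. Its log2 fold change of 0.75 had an SE of 0.284 and did not pass (adjusted p = 0.153 from edgeR). It passed without knockdown replicate 3 (edgeR adjusted p = 0.0243), with library sizes from the spike-ins (0.0307) and without the filter on low counts (0.0449). C5ar1 had 22.6, 41.7 and 19.8 against 31.5, 35.2 and 27.2, and at these counts no difference was detectable. The part of the macrophage markers, given with the C1q chains, in the C3ar1 values was not tested.

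**Figure D4:**
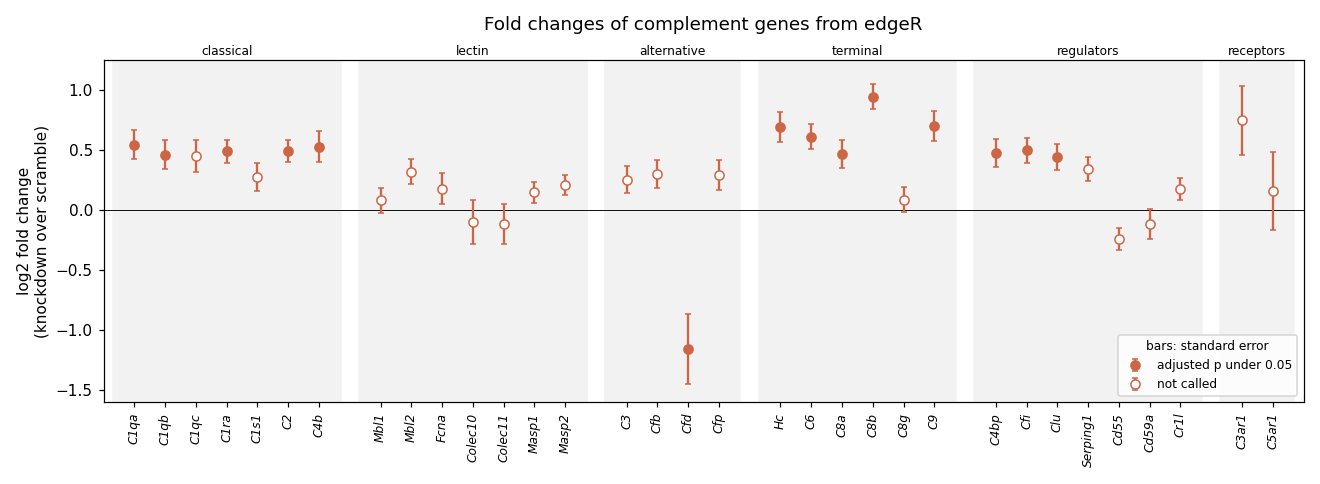
Log2 fold change (knockdown over scramble) of the 33 genes from edgeR with its standard error, by pathway, filled where the adjusted p was under 0.05. The filled points are 5 classical, 5 terminal and 3 regulator genes above 0 and Cfd below 0.

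A further list held 24 other complement genes, of which 21 passed the filter and C1rb, C1s2 and Fcnb did not. Among the 21, 1 was called, higher in the knockdown group (4.76%, against 6.32% of all genes tested), and their median log2 fold change was 0.13, with 7 whose groups did not overlap (33.3%, against 28.9% of all). Vtn, an inhibitor of the attack complex in plasma, had a log2 fold change of 0.14 (SE 0.103, edgeR adjusted p = 0.459). Cpn2, a subunit of carboxypeptidase N, the plasma enzyme that inactivates anaphylatoxins, had one of 0.13 (SE 0.107, edgeR adjusted p = 0.491), and neither passed the test.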

How the data were processed

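RNA-seq of 6 mouse livers was analysed, 3 of the rAAV8-sh-scramble and 3 of the rAAV8-sh-Hnf1aos1 group, assigned by their labels. Per the paper's methods, reads were trimmed with Trimmomatic, aligned to GRCm38 with STAR and counted over exons with featureCounts when uniquely mapped, while the submitters' processing notes list GRCm39. The strand setting and annotation are not given in the sources used here. The methods name a poly(A) kit and the labels ribosomal RNA depletion. The authors deposited raw counts per gene, which were tested, and TPM values, which serve only to compare levels between genes. The authors' normalized counts and the log2 fold changes and p-values of their comparison were not used.

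The 92 ERCC spike-in rows (1.38 to 1.52% of a scramble and 1.18 to 1.24% of a knockdown library) were left out. With edgeR 4.0.16 in R 4.3.3, genes passing filterByExpr were scaled by TMM and compared by robust quasi-likelihood fits on the group alone, and p-values were adjusted by Benjamini-Hochberg over all genes tested. DESeq2 1.42.0, limma 3.58.1 (voom), other scalings and filters, the replicate number as a block and each library left out in turn were the alternatives. Depth leaves little counting error for all but the genes of the lowest counts. No libraries were duplicates (chi-square per gene of 7.68 to 31.6 within groups, against about 1 for sampling noise). The script was run on simulated counts with no changes, or with planted changes larger than those of the 33 genes, so changes of their size were not simulated. Positions are from GENCODE M21 and sequences from RefSeq, both on GRCm38, matched by symbol. All 33 genes are named by rule, and of the other complement genes those called or among the 5 with the highest counts. Some genes that this rule names are not reported here. The genes, lists and motifs were chosen with earlier results of these data known.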

Additional observations from a re-analysis of the deposited data

How the results depend on the processing

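Among the alternatives without a left-out library, 11 to 18 of the 33 genes were called, except with library sizes from the spike-ins (25) and with the added log2 limit of 1 (1). The spike-in sizes moved the log2 fold change of the median gene by 0.20, called 20.8% of all genes, 89.3% of them higher (48.9% with TMM and 30.4% with library totals), and moved the median to 0.52 for the 33 genes, 0.69 for the classical, 0.35 for the lectin, 0.47 for the alternative, 0.85 for the terminal and 0.55 for the regulator genes. Log2 fold changes then changed sign for Colec10 (0.10), Colec11 (0.086) and Cd59a (0.077). A minimum mean of 50 counts left only C3ar1 of the receptors, at 0.72. Of the other complement genes 1 was called in the main comparison, 5 with spike-in sizes, 3 without a filter on low counts and 2 with the replicate block. Hnf1aos1 was called by DESeq2 (−0.74), without a filter (−0.74), by voom (−0.77) and with the block (−0.77), with adjusted p from 0.00341 to 0.0491. The block called 12 of the 33, all 12 among the 14, and replicate numbers did not pair the libraries (correlations of deviations of 0.00466, 0.0373 and −0.0189). With 1 library left out, 1 to 17 of the 33 and 0 to 3 of the other complement genes were called, Hnf1aos1 lay between −1.01 and −0.60, and the sign turned in some fits for Colec10 (−0.30 to 0.074), Colec11 (−0.29 to 0.016), Cd59a (−0.20 to 0.036) and C5ar1 (−0.041 to 0.55). The cause of these shifts was not tested. Low counts limit Cfd, C3ar1 and C5ar1.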
